A study of Mus musculus with 16 samples.

Results

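This account covers 35 genes that mark endothelial cells, the cells that line blood and lymphatic vessels. They were taken from a named list of general endothelial genes with arterial, venous, lymphatic and tip cell genes beside them, and they are 35 of 16582 genes tested on the arrays. Each had a probe, passed the filter on weak signals and was above the detection limit in all 16 samples. Cy3-labelled RNA of whole mouse embryonic gonads was hybridised to Agilent arrays. The 4 groups were female Nanos3+/- (heterozygous), female Nanos3-/- (knockout), male Nanos3+/- and male Nanos3-/- gonads, with 1 sample of each embryonic day (E) from 12.5 to 15.5. Each sample combines replicates 1 and 2 by its title, so the 4 days serve as the replicates of a group. The p-values of knockout and sex differences rest on how same-day differences vary over the days. Those of slopes rest on departures from a straight line. Nanos3 encodes an RNA-binding protein that germ cells need, and both Nanos3+/- groups, which serve as controls, carry the mutant allele on a single chromosome.

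Endothelial cells join through VE-cadherin and claudins, and they grow and survive through receptors for VEGF and for angiopoietins. Arteries express ephrin and Notch pathway genes and particular connexins, veins express the receptor for that ephrin, and tip cells lead new sprouts. In the mouse fetal testis, endothelial cells enter from the neighbouring mesonephros and form a coelomic artery, which the fetal ovary lacks.

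The 250 bases upstream of the start are shown for Gja5, Dll4 and Esm1, which were higher in males, and for Ephb4 and Robo4, which were lower in males. The sequences are RefSeq's on GRCm38.p6, all on the + strand, printed 5′ to 3′. They lie at chr3:97032152-97032401 for Gja5, chr2:119325534-119325783 for Dll4, chr13:113209409-113209658 for Esm1, chr5:137349859-137350108 for Ephb4 and chr9:37401722-37401971 for Robo4. For Robo4 the start used lies inside the annotated gene, which begins at 37401902, and its marked letters lie past that position. Capitals mark the ETS forms CCGGAA and CAGGAA on either strand, letters that ETS factors such as Erg and Fli1 bind.
Gja5: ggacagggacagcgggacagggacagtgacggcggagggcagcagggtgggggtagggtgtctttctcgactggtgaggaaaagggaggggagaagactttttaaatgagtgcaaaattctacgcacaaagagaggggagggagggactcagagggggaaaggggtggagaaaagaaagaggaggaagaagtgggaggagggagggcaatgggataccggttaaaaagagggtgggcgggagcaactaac
Dll4: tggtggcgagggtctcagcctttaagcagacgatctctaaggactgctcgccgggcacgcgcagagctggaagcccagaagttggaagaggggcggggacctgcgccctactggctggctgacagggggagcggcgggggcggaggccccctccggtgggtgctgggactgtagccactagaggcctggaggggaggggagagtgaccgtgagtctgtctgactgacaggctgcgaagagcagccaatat
Esm1: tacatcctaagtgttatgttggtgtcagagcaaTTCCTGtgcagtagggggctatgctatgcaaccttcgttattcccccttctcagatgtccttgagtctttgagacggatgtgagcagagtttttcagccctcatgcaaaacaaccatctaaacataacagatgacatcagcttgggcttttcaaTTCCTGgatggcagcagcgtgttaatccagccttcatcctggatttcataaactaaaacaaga
Ephb4: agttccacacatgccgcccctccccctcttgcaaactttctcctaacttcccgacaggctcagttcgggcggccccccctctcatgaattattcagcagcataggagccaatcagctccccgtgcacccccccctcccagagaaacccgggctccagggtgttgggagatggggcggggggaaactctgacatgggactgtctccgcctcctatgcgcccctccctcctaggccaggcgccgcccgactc
Robo4: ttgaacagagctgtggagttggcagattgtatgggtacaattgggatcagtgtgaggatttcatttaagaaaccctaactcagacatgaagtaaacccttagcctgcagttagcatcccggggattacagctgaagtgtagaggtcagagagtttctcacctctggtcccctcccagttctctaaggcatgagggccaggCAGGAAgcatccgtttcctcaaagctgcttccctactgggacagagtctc
Esm1 had 2 matches, Robo4 had 1, and Gja5, Dll4 and Ephb4 had none in this window. Promoters were found for 21 of the 35 genes, 25 promoters in all. An ETS form was present in 13 of these 25 (52%), against 35.1% of 32851 mouse promoters of the same length. CAGGAA alone was in 48% of them against 25.7%, and CCGGAA in 4% against 12.03%. The RBPJ core TGGGAA, the letters bound by the Notch effector, was in 16% against 21.6%, and the forkhead core TAAACA in 4% against 12.03%. These counts are descriptions of letters and were not tested.

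As multiples of its median, and in the order of the 4 days, Nanos3 itself was at 2.06, 1.21, 0.613 and 0.571 in female heterozygotes, 0.717, 1.12, 0.712 and 0.817 in female knockouts, 3.25, 11.3, 7.96 and 1.9 in male heterozygotes, and 0.973, 1.03, 0.76 and 0.616 in male knockouts. The male groups did not overlap, whereas the female groups did, so in females the gene does not check the labels, and whether its probe lies in the deleted part is not given in the sources used here. All 6 germ cell genes were lower in the knockouts of both sexes, with medians of -7.29 in females and -7.41 in males on the log2 scale, among them Ddx4 (-7.64 ± 0.45 and -7.21 ± 0.45). The description field of every female sample reads male, while the titles and the sex label read female. All 4 Sertoli genes were higher and all 4 pre-granulosa genes lower in the samples titled male, with medians of 6.85 and -2.41. Signals differed in quality by day: between 1556 and 7957 of 41174 probes per sample were at the detection limit at E12.5 and E13.5, and between 8298 and 11181 at E14.5 and E15.5. They also differed by genotype. Knockouts had more such probes than heterozygotes of the same sex and day, as in females at E12.5 (7957 against 1556). Males at E13.5 were the exception (4451 against 6710). The part of this in the knockout differences was not tested.

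**Figure D1:**
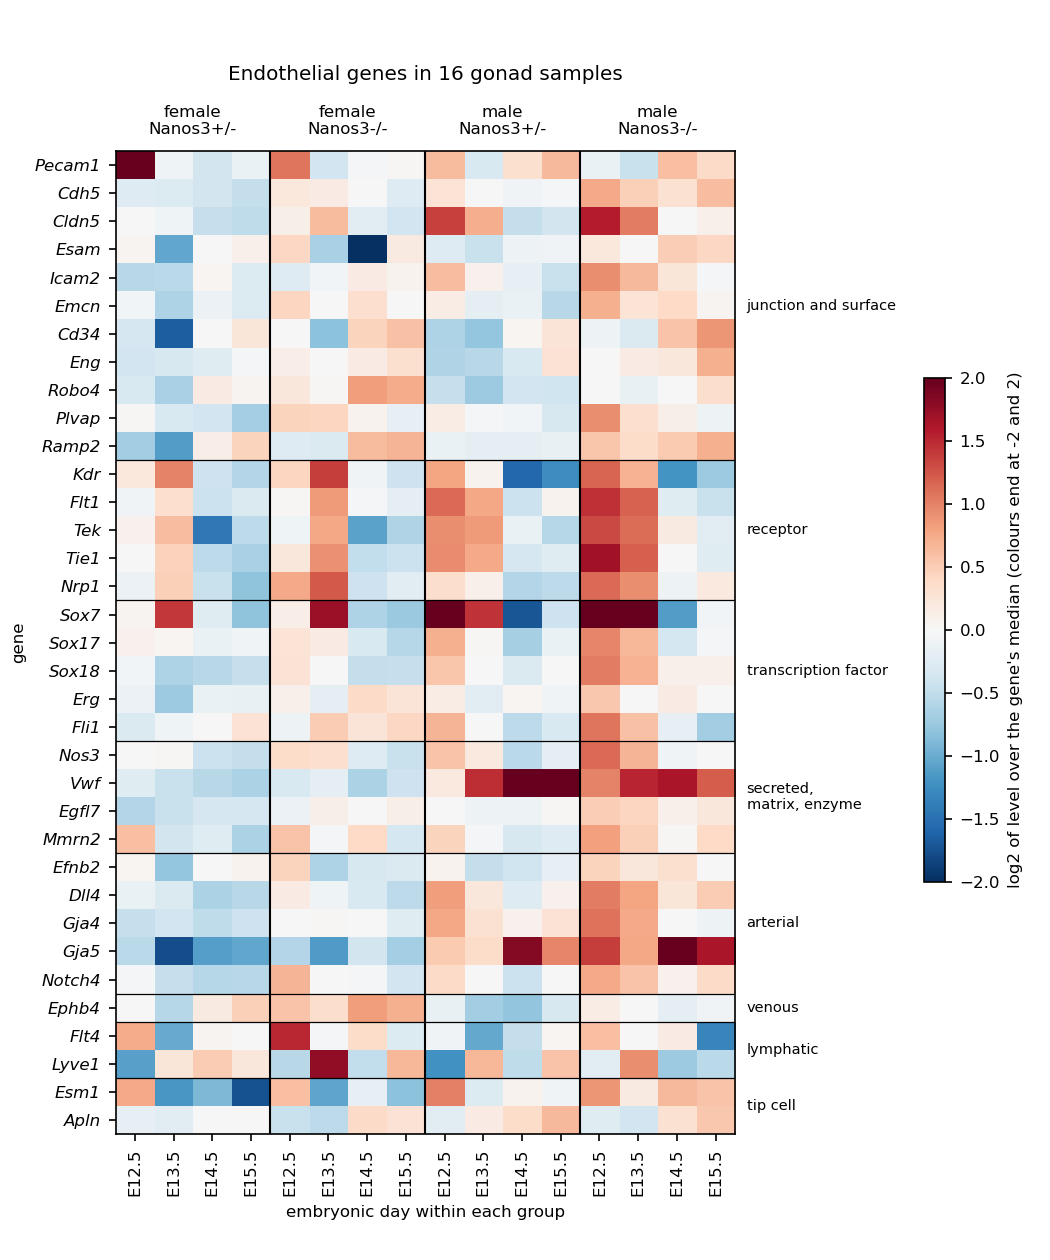
Level of each of the 35 endothelial genes (rows, grouped by role) in the 16 samples (columns, by group and embryonic day), as log2 of the level over the gene's own median, with colours ending at -2 and 2. Gja5 is high across the male columns and Vwf in most of them, and in males the receptors and Sox7 are high at E12.5.

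Levels below are given relative to the gene's own median over the 16 samples, with the 4 days of each group in order from E12.5 to E15.5. Because the deposited values were centred per probe, levels of different genes cannot be compared. A difference is the log2 of knockout over heterozygous, or of male over female, with its standard error in limma. Within a sex or genotype it rests on 4 pairs of samples, and all 16 samples share an estimate of the spread per gene. A gene is called at an adjusted p under 0.05 over all 16582 genes. In whole gonads, fewer cells of a type and less RNA per cell cannot be told apart.

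The first comparison asked how endothelial genes differ between gonads with and without germ cells. In female knockouts 13 of the 35 endothelial genes rose and none fell, against a background of 20.9% of all genes higher and 13% lower. In male knockouts 21 rose and none fell, against 21.6% higher and 12.6% lower. The rises were small, between 0.31 and 0.64 in females and between 0.33 and 0.70 in males on the log2 scale. In all, 12 genes were called in both sexes, which are 92.3% of those called in females and 57.1% of those in males. At an unadjusted p under 0.05 limma gave 18 genes in females and 24 in males.

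All genes together were also shifted, with medians of 0.11 in females and 0.12 in males, and this shift came from scaling the arrays: as deposited, the medians were 0.00 and 0.01. Relative to all genes, the endothelial median was 0.21 higher in females and 0.30 higher in males after scaling, and 0.20 and 0.30 higher as deposited. The calls depended on the scaling and on the days, since 1 gene in females (Robo4) and 1 in males (Ramp2) were called with arrays as deposited. Without E13.5 the counts were 1 and 7, and without E14.5 they were 3 and 6.

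Of the 11 genes of junctions and the cell surface, 8 were higher in each sex. Cdh5, which encodes VE-cadherin of the adherens junction, was at 0.839, 0.823, 0.774 and 0.721 in female heterozygotes, 1.16, 1.12, 0.992 and 0.837 in female knockouts, 1.21, 1.01, 0.949 and 0.989 in male heterozygotes, and 1.69, 1.4, 1.24 and 1.54 in male knockouts. The male knockouts lay above the male heterozygotes without overlap, and the female groups overlapped. Its difference was 0.37 ± 0.08 in females (adjusted p = 0.0117) and 0.50 ± 0.08 in males (adjusted p = 0.00423). The other probe of Cdh5 was not called in females, at 0.27 (limma adjusted p = 0.0544), and was called in males, at 0.44 (0.0102). Robo4, an endothelial member of the roundabout receptor family, was at 0.813, 0.639, 1.12 and 1.04 in female heterozygotes, 1.17, 1.02, 1.78 and 1.67 in female knockouts, 0.726, 0.607, 0.767 and 0.762 in male heterozygotes, and 1.01, 0.903, 0.993 and 1.27 in male knockouts. It was higher in the knockout on every day in both sexes, by 0.64 ± 0.09 and 0.54 ± 0.09 (adjusted p = 0.00190 and 0.00351), and the male groups did not overlap. Ramp2, a partner of the receptor for adrenomedullin, stood at 0.619, 0.463, 1.1 and 1.36 in female heterozygotes, 0.838, 0.823, 1.55 and 1.61 in female knockouts, 0.909, 0.876, 0.887 and 0.904 in male heterozygotes, and 1.47, 1.29, 1.44 and 1.63 in male knockouts. Its male groups did not overlap either, and the differences were 0.50 ± 0.11 and 0.70 ± 0.11.

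The sialomucin gene Emcn was at 0.966, 0.653, 0.925 and 0.824 in female heterozygotes, 1.35, 0.991, 1.26 and 1.01 in female knockouts, 1.1, 0.887, 0.91 and 0.682 in male heterozygotes, and 1.64, 1.2, 1.31 and 1.03 in male knockouts. Eng, which encodes the TGF-β co-receptor endoglin, was at 0.77, 0.801, 0.841 and 0.987 in female heterozygotes, 1.09, 1.01, 1.13 and 1.25 in female knockouts, 0.662, 0.684, 0.81 and 1.22 in male heterozygotes, and 0.989, 1.12, 1.17 and 1.64 in male knockouts. For both genes the female knockouts lay above the female heterozygotes without overlap, while the male groups overlapped. Emcn rose by 0.45 ± 0.08 in females and 0.53 ± 0.08 in males, and Eng by 0.40 ± 0.08 and 0.56 ± 0.08. The adhesion gene Icam2 was at 0.679, 0.691, 1.02 and 0.825 in female heterozygotes, 0.84, 0.96, 1.12 and 1.05 in female knockouts, 1.53, 1.06, 0.892 and 0.737 in male heterozygotes, and 1.9, 1.57, 1.18 and 0.976 in male knockouts. Cd34, a sialomucin of endothelium and blood progenitors, was at 0.79, 0.319, 0.996 and 1.18 in female heterozygotes, 1.0, 0.564, 1.37 and 1.51 in female knockouts, 0.65, 0.588, 1.03 and 1.2 in male heterozygotes, and 0.933, 0.817, 1.49 and 1.84 in male knockouts. Plvap, which encodes the diaphragm protein of endothelial pores, was at 1.01, 0.808, 0.764 and 0.622 in female heterozygotes, 1.36, 1.35, 1.06 and 0.897 in female knockouts, 1.11, 0.985, 0.968 and 0.80 in male heterozygotes, and 1.91, 1.27, 1.08 and 0.931 in male knockouts. In these 3 genes the knockout was higher than the heterozygote of the same day in 4 of 4 pairs in each sex, although the groups overlapped. Icam2 rose by 0.31 ± 0.09 and 0.42 ± 0.09, Cd34 by 0.49 ± 0.10 and 0.54 ± 0.10, and Plvap by 0.54 ± 0.12 and 0.38 ± 0.12.

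The 3 surface genes that were not called in either sex were Pecam1, Cldn5 and Esam. Pecam1, an adhesion gene that mouse fetal germ cells also express, was at 4.41, 0.939, 0.773 and 0.914 in female heterozygotes, 2.11, 0.766, 0.983 and 1.02 in female knockouts, 1.55, 0.812, 1.24 and 1.57 in male heterozygotes, and 0.915, 0.735, 1.51 and 1.3 in male knockouts. The female heterozygous sample of E12.5 was the highest and the groups overlapped otherwise. Its differences were -0.21 ± 0.24 in females and -0.22 ± 0.24 in males, and the part of germ cells in them was not tested. The tight junction gene Cldn5 was at 0.998, 0.941, 0.725 and 0.704 in female heterozygotes, 1.09, 1.55, 0.851 and 0.766 in female knockouts, 2.59, 1.66, 0.719 and 0.776 in male heterozygotes, and 2.96, 2.03, 1.0 and 1.07 in male knockouts. It differed by 0.30 ± 0.14 and 0.36 ± 0.14, with adjusted p-values of 0.120 and 0.0729. Esam, which encodes an adhesion molecule of endothelial tight junctions, was at 1.04, 0.487, 0.995 and 1.08 in female heterozygotes, 1.34, 0.641, 0.124 and 1.13 in female knockouts, 0.834, 0.738, 0.931 and 0.956 in male heterozygotes, and 1.15, 1.01, 1.41 and 1.33 in male knockouts. The female knockout sample of E14.5 was far below all others, and in the other 3 pairs of females the knockout was higher by 0.07 to 0.40. The male groups did not overlap, but with this spread neither difference was called (-0.54 ± 0.49 in females and 0.50 ± 0.49 in males).

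Among the receptors of vessel growth, Nrp1 was called in both sexes and Kdr and Tek in males. Nrp1, a co-receptor for VEGF and class 3 semaphorins, was at 0.918, 1.39, 0.731 and 0.57 in female heterozygotes, 1.7, 2.33, 0.751 and 0.858 in female knockouts, 1.27, 1.08, 0.666 and 0.693 in male heterozygotes, and 2.19, 1.9, 0.93 and 1.14 in male knockouts. It rose by 0.57 ± 0.15 in females and 0.70 ± 0.15 in males. Kdr, the main signalling receptor for VEGF, was at 1.16, 2.0, 0.753 and 0.667 in female heterozygotes, 1.35, 2.62, 0.95 and 0.748 in female knockouts, 1.73, 1.05, 0.336 and 0.425 in male heterozygotes, and 2.23, 1.62, 0.437 and 0.607 in male knockouts. Every pair had the higher level in the knockout, and the differences were 0.28 ± 0.10 (adjusted p = 0.0677) in females and 0.47 ± 0.10 (adjusted p = 0.0102) in males. Tek, the angiopoietin receptor, was at 1.06, 1.54, 0.371 and 0.699 in female heterozygotes, 0.946, 1.7, 0.476 and 0.662 in female knockouts, 1.9, 1.81, 0.91 and 0.674 in male heterozygotes, and 2.48, 2.17, 1.13 and 0.865 in male knockouts. Its difference was 0.07 ± 0.11 in females and 0.33 ± 0.11 in males, and the difference between the sexes was 0.27 (95% interval -0.09 to 0.62). Flt1, the decoy receptor for VEGF, and Tie1, the partner of Tek, were not called in either sex with the probes used, with differences between 0.10 and 0.38. The 2 other probes of Flt1 were called in both sexes, at 0.55 and 0.50 in females (adjusted p = 0.0063 and 0.0107) and 0.41 and 0.40 in males (adjusted p = 0.0184 and 0.0243), in the limma fit of all 26896 probes. The other probe of Tek was called in neither sex.

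Of the 5 transcription factor genes, Erg was called in females and Sox7 and Sox18 in males. Erg, an ETS factor that maintains endothelial identity, was at 0.924, 0.602, 0.913 and 0.905 in female heterozygotes, 1.07, 0.887, 1.3 and 1.19 in female knockouts, 1.11, 0.859, 1.02 and 0.952 in male heterozygotes, and 1.46, 0.991, 1.11 and 1.01 in male knockouts. It rose by 0.42 ± 0.09 in females, and the male difference was 0.20 ± 0.09. A further probe for Erg gave -0.01 as the mean over the sexes, where the probe used gave 0.31. Sox18, a SOXF factor of vessel and lymphatic development, was at 0.961, 0.655, 0.681 and 0.73 in female heterozygotes, 1.23, 0.992, 0.72 and 0.728 in female knockouts, 1.47, 1.01, 0.82 and 1.01 in male heterozygotes, and 2.03, 1.62, 1.07 and 1.07 in male knockouts. Its male difference was 0.41 ± 0.13 and its female one 0.26 ± 0.13. Sox7, of the same SOXF family, was at 1.04, 2.66, 0.848 and 0.575 in female heterozygotes, 1.09, 3.32, 0.65 and 0.598 in female knockouts, 4.62, 2.73, 0.305 and 0.751 in male heterozygotes, and 6.39, 5.08, 0.459 and 0.958 in male knockouts. Males differed by 0.58 ± 0.17 and females by 0.01 ± 0.17, and the difference between these, 0.56 (95% interval 0.02 to 1.11), was not called (adjusted p = 0.247). Sox17 and Fli1 were not called with the probes used, with differences from -0.09 to 0.34. Their other probes were called in both sexes, that of Sox17 at 0.35 in females and 0.45 in males (limma adjusted p = 0.0385 and 0.0151) and that of Fli1 at 0.44 and 0.51 (0.00913 and 0.00559). The other probe of Sox7 was called in neither sex, at 0.29 and 0.30.

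Among genes for secreted and matrix proteins, Egfl7, an endothelial matrix factor, was at 0.664, 0.731, 0.796 and 0.797 in female heterozygotes, 0.923, 1.09, 1.0 and 1.08 in female knockouts, 0.999, 0.93, 0.931 and 1.01 in male heterozygotes, and 1.41, 1.35, 1.07 and 1.16 in male knockouts. The knockouts lay above the heterozygotes without overlap in both sexes, by 0.45 ± 0.09 and 0.36 ± 0.09. Nos3, the endothelial nitric oxide synthase, was at 1.01, 1.02, 0.744 and 0.72 in female heterozygotes, 1.28, 1.26, 0.839 and 0.737 in female knockouts, 1.49, 1.15, 0.689 and 0.87 in male heterozygotes, and 2.2, 1.6, 0.953 and 0.992 in male knockouts. Mmrn2, a matrix glycoprotein of the multimerin family, was at 1.52, 0.776, 0.843 and 0.642 in female heterozygotes, 1.48, 0.97, 1.31 and 0.786 in female knockouts, 1.36, 0.985, 0.80 and 0.84 in male heterozygotes, and 1.77, 1.4, 1.02 and 1.32 in male knockouts. Both were called in males alone, at 0.43 ± 0.10 and 0.47 ± 0.12, and their female differences were 0.22 ± 0.10 and 0.30 ± 0.12, and the tests of male against female differences were not called (adjusted p = 0.474 and 0.646).

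With the probes used, 4 of the 5 arterial genes rose in male knockouts and 1 in female knockouts, and the venous gene rose in both. Of 7 other arterial genes, described further below, 0 were called higher in the knockouts of either sex. Notch4, an endothelial Notch receptor, was at 0.983, 0.728, 0.676 and 0.68 in female heterozygotes, 1.61, 0.996, 0.986 and 0.767 in female knockouts, 1.3, 1.01, 0.741 and 1.0 in male heterozygotes, and 1.69, 1.49, 1.06 and 1.3 in male knockouts. Ephb4, the venous receptor for the ephrin of arteries, was at 0.994, 0.674, 1.13 and 1.39 in female heterozygotes, 1.48, 1.28, 1.78 and 1.64 in female knockouts, 0.898, 0.618, 0.579 and 0.803 in male heterozygotes, and 1.11, 1.01, 0.875 and 0.95 in male knockouts. Both were called in females (0.47 ± 0.10 and 0.60 ± 0.13) and in males (0.46 ± 0.10 and 0.46 ± 0.13). Efnb2, the arterial ephrin ligand, was at 1.03, 0.582, 1.01 and 1.05 in female heterozygotes, 1.36, 0.654, 0.802 and 0.818 in female knockouts, 1.05, 0.719, 0.763 and 0.891 in male heterozygotes, and 1.37, 1.17, 1.24 and 0.992 in male knockouts. It rose by 0.49 ± 0.16 in males, whereas the female difference was -0.03 ± 0.16, with the knockout higher at E12.5 and E13.5 and lower at E14.5 and E15.5. The difference between the sexes was 0.52 (95% interval 0.01 to 1.02) and was not called (adjusted p = 0.247). Dll4, the Notch ligand of arteries and tip cells, was at 0.91, 0.82, 0.643 and 0.677 in female heterozygotes, 1.13, 0.943, 0.809 and 0.695 in female knockouts, 1.78, 1.17, 0.838 and 1.06 in male heterozygotes, and 2.03, 1.73, 1.18 and 1.43 in male knockouts. Gja5, a connexin of arterial gap junctions, was at 0.69, 0.294, 0.467 and 0.485 in female heterozygotes, 0.663, 0.456, 0.772 and 0.621 in female knockouts, 1.44, 1.3, 3.58 and 1.96 in male heterozygotes, and 2.6, 1.7, 4.35 and 3.1 in male knockouts. In males Dll4 and Gja5 were called, at 0.42 ± 0.09 and 0.55 ± 0.16, and in females they differed by 0.22 ± 0.09 and 0.41 ± 0.16 (adjusted p = 0.101 and 0.0722). The other probe of Gja5 was called in females, at 0.40 (limma adjusted p = 0.0208), and not in males, at 0.24 (0.117). That of Ephb4 was not called in females, at 0.29 (0.122), and was called in males, at 0.50 (0.0207). Gja4, whose levels are given with the sex comparison, differed by 0.38 ± 0.15 in females, where the groups did not overlap, and by 0.07 ± 0.15 in males, and was not called.

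Lymphatic and tip cell genes were not called in either sex with the probes used. Flt4, the VEGF receptor of lymphatic vessels, was at 1.67, 0.495, 1.04 and 1.01 in female heterozygotes, 2.86, 0.974, 1.29 and 0.831 in female knockouts, 0.956, 0.494, 0.719 and 1.02 in male heterozygotes, and 1.52, 0.993, 1.11 and 0.402 in male knockouts. Lyve1, a hyaluronan receptor of lymphatic endothelium that macrophages also express, was at 0.47, 1.18, 1.42 and 1.16 in female heterozygotes, 0.678, 3.43, 0.709 and 1.59 in female knockouts, 0.43, 1.58, 0.701 and 1.49 in male heterozygotes, and 0.859, 1.91, 0.602 and 0.69 in male knockouts. The groups overlapped for both, and the female differences were 0.45 ± 0.36 and 0.38 ± 0.41, the male ones 0.24 ± 0.36 and -0.01 ± 0.41. The other probe of Lyve1 was called in females, at 0.73 (limma adjusted p = 0.0413), and not in males, at -0.21. Esm1, a proteoglycan of tip cells, was at 1.69, 0.448, 0.537 and 0.299 in female heterozygotes, 1.52, 0.48, 0.89 and 0.566 in female knockouts, 2.01, 0.8286, 1.05 and 0.949 in male heterozygotes, and 1.85, 1.13, 1.57 and 1.49 in male knockouts. Apln, the peptide apelin that sprouting cells release, was at 0.889, 0.868, 1.0 and 0.997 in female heterozygotes, 0.737, 0.699, 1.3 and 1.23 in female knockouts, 0.858, 1.13, 1.29 and 1.57 in male heterozygotes, and 0.847, 0.763, 1.24 and 1.46 in male knockouts. Esm1 differed by 0.40 ± 0.19 in females and 0.39 ± 0.19 in males, and Apln by 0.02 ± 0.15 and -0.18 ± 0.15.

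As a mean over the sexes 22 endothelial genes rose and none fell, against 31.2% of all genes higher and 18.1% lower. Esm1 (0.39 ± 0.14), Cldn5 (0.33 ± 0.10) and Tie1 (0.31 ± 0.10), called in neither sex alone, were among them. In limma the size of the knockout difference was called unlike between males and females for none of the endothelial genes, against 0.874% of all genes, and 2 had an unadjusted p under 0.05. Vwf, also given with the sex comparison, differed by 0.09 ± 0.52 in females and -0.97 ± 0.52 in males and was not called. Knockouts were above heterozygotes without overlap for 4 endothelial genes in females and 5 in males, where 6.03% and 7.92% of all genes were. They were higher on all 4 days for 21 endothelial genes in females and 25 in males, where 32% and 34.1% of all genes were.

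Genes of other cells that lie in or along vessels were counted in the same comparison, where 20.9% of all genes were higher in female and 21.6% in male knockouts. Of 6 erythroid genes measured, 6 were higher in female knockouts (median 2.15) and 1 in males, with Klf1 at 3.43 ± 0.61 in females. Of 5 platelet genes, 3 were higher in females and 2 in males, Pf4 at 0.90 ± 0.18 and 0.59 ± 0.18. Of 9 macrophage genes, 1 was higher in females and 6 in males, so that the female share (11.1%), like the male erythroid one (16.7%), was below that of all genes. Of 8 mural cell genes, 3 were higher in females and 5 in males, including Pdgfrb (0.53 ± 0.09 and 0.55 ± 0.09). No gene of these lists was at the detection limit in any sample. The mean log2 level of the erythroid list ran from -0.94 to -0.03 in female heterozygotes and from 0.72 to 2.47 in female knockouts, that of the platelet list from -1.03 to 0.33 and from 0.03 to 0.74. In males the erythroid list ran from -1.17 to 0.69 in heterozygotes and from -0.22 to 1.18 in knockouts, and the platelet list from -0.83 to 1.02 and from -0.45 to 1.47. For macrophage genes these ranges were -0.25 to 0.26 and 0.03 to 0.37 in females, and -0.52 to -0.12 and -0.23 to 0.25 in males. For mural genes they were -0.52 to -0.02 and -0.10 to 0.21 in females, and -0.62 to 0.64 and 0.02 to 0.80 in males. The endothelial genes ran from -0.38 to -0.10 and from -0.17 to 0.16 in females, and from -0.22 to 0.31 and from 0.10 to 0.74 in males. The part of these other cells, and of the lost germ cell RNA, in the endothelial differences was not tested.

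**Figure D2:**
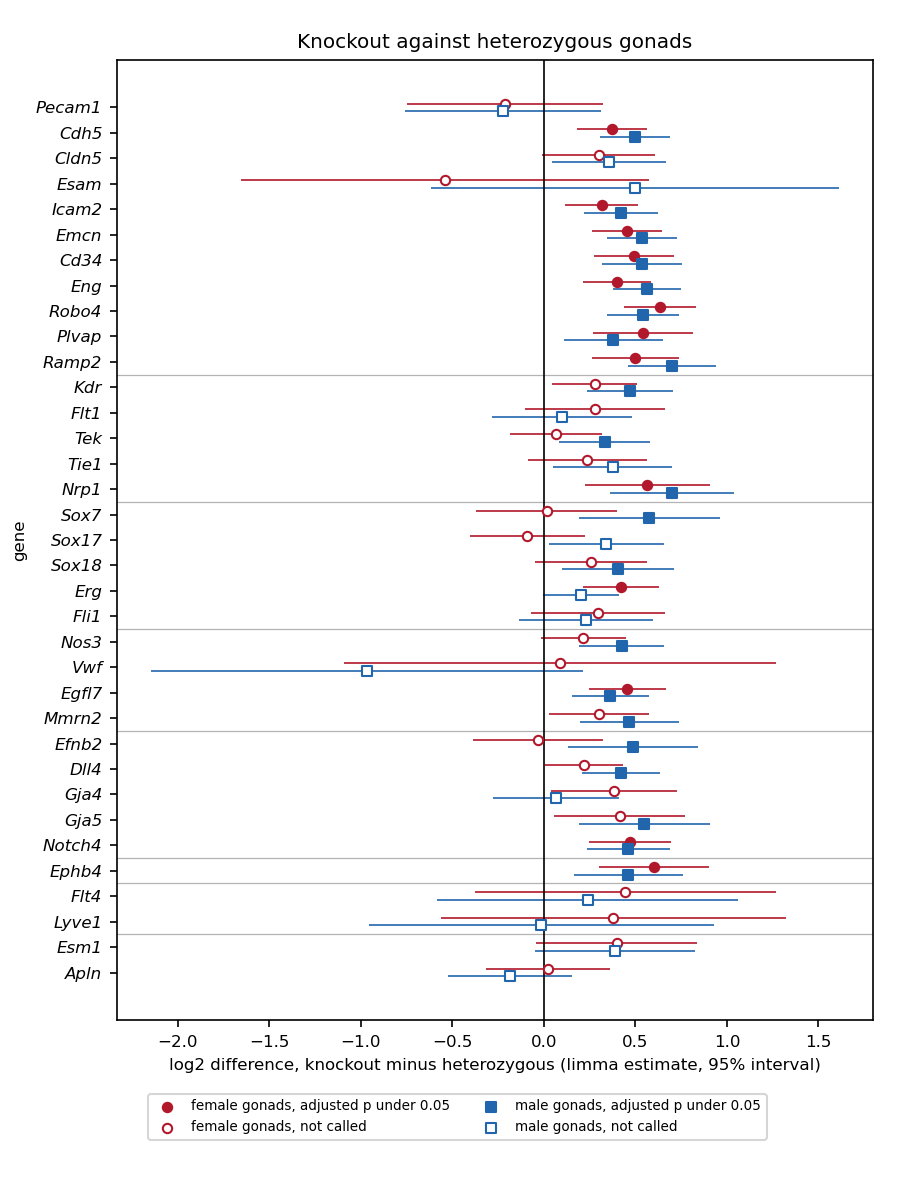
Log2 difference of each endothelial gene between Nanos3-/- and Nanos3+/- gonads with its 95% interval, females as circles and males as squares, filled where the adjusted p was under 0.05. No filled symbol lies left of 0, and Vwf and Esam have the widest intervals.

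The second comparison asked how endothelial genes differ between testis and ovary. Gja5 and Vwf were several-fold higher in male gonads, and Dll4, Gja4, Esm1 and Sox18 were moderately higher. Heterozygous males had 6 genes higher and 0 lower, against 11.7% of all genes higher and 12.1% lower, and 11 genes had an unadjusted p under 0.05. Knockout males had 5 higher and 0 lower, against 9.01% and 9.05%, with 15 at an unadjusted p under 0.05. With the probes used, Sox18, Dll4, Gja5 and Esm1 were called in both genotypes. Males lay above females without overlap for 5 endothelial genes in heterozygotes and 4 in knockouts, where 8.08% and 9.9% of all genes did, and below them for 0 and 1, where 7.77% and 9.96% did. As a mean over the genotypes 12 genes were higher and 2 lower in males, against 16.8% of all genes in each direction, and the endothelial median was 0.24 where that of all genes was 0.04.

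In both genotypes the male levels of Gja5 given above lay between 1.30 and 4.35 and the female levels between 0.294 and 0.772, so the sexes did not overlap. The difference was 2.04 ± 0.27 in heterozygotes (adjusted p = 0.00111) and 2.17 ± 0.27 in knockouts (adjusted p = 0.000606), which are 4.11-fold and 4.50-fold. A further probe of Gja5 gave a smaller difference, 1.15 as a mean over the genotypes against 2.10, in the same direction. Vwf, the clotting and adhesion protein of endothelium and platelets, was at 0.841, 0.736, 0.678 and 0.642 in female heterozygotes, 0.814, 0.87, 0.645 and 0.75 in female knockouts, 1.15, 2.79, 10.6 and 17.5 in male heterozygotes, and 1.98, 2.86, 3.1 and 2.32 in male knockouts. Its female levels stayed below its median while in male heterozygotes they were highest at E14.5 and E15.5. The sex difference was 2.78 ± 0.60 in heterozygotes (adjusted p = 0.0107) and 1.72 ± 0.60 in knockouts (adjusted p = 0.0807), and a further probe gave a mean of 2.35 against 2.25. That further probe was called in both genotypes, at 2.97 in heterozygotes (limma adjusted p = 0.00248) and 1.73 in knockouts (0.0310). Of the genes of platelets, which also hold Vwf, Gp1bb was called between the sexes (0.43 ± 0.11) and the 4 others were not.

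Gja4, a connexin that arteries share with Gja5, was at 0.728, 0.77, 0.704 and 0.749 in female heterozygotes, 0.994, 1.02, 1.01 and 0.842 in female knockouts, 1.71, 1.24, 1.07 and 1.22 in male heterozygotes, and 2.12, 1.69, 0.994 and 0.928 in male knockouts. Male and female heterozygotes did not overlap, and the difference was 0.80 ± 0.22 (adjusted p = 0.0265), against 0.49 ± 0.22 in knockouts. Dll4 was higher in males on every day, by 0.63 ± 0.14 in heterozygotes and 0.83 ± 0.14 in knockouts, and the knockouts of the sexes did not overlap. Notch4 was higher in males in 8 of 8 pairs and was called as a mean (0.39 ± 0.11). Efnb2 was not called, at -0.08 ± 0.18 in heterozygotes and 0.44 ± 0.18 in knockouts. Thus 4 of the 5 arterial genes were higher in males as a mean. Ephb4, the venous gene, went the other way, with lower levels in males in 8 of 8 pairs and a mean of -0.58 ± 0.14 (adjusted p = 0.0116). With the probe used it was not called in either genotype alone (adjusted p = 0.0928 and 0.0504). Its other probe was called lower in male heterozygotes, at -0.49 (limma adjusted p = 0.0381), and not in knockouts, at -0.28 (0.224).

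The level of Gja5 divided by that of Ephb4 in the same sample, each relative to its own median, ran from 0.348 to 0.694 in female heterozygotes and from 0.356 to 0.447 in female knockouts. In males it ran from 1.60 to 6.18 and from 1.69 to 4.97. For Dll4 over Ephb4 the ranges were 0.486 to 1.22 and 0.423 to 0.758 in females and 1.32 to 1.99 and 1.35 to 1.83 in males. For Efnb2 over Ephb4 they were 0.756 to 1.03 and 0.451 to 0.914 in females and 1.11 to 1.32 and 1.04 to 1.42 in males. All 3 ratios separated the sexes, but so did Ephb4 over the general endothelial gene Cdh5, which holds no arterial gene, at 0.819 to 1.93 and 1.15 to 1.96 in females and 0.611 to 0.812 and 0.618 to 0.72 in males. Over Cdh5, Gja5 also separated the sexes (0.357 to 0.823 and 0.408 to 0.779 in females, 1.19 to 3.77 and 1.22 to 3.51 in males). Dll4 over Cdh5 overlapped (0.83 to 1.08 and 0.816 to 0.972 in females, 0.883 to 1.48 and 0.928 to 1.24 in males), and so did Efnb2 over Cdh5 (0.707 to 1.46 and 0.586 to 1.17 against 0.713 to 0.901 and 0.645 to 1.0). These ratios were formed with the sex differences of the genes known and have no test.

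Of the 11 junction and surface genes, Cdh5 and Cldn5 were higher and Robo4 was lower in males as a mean, at 0.45 ± 0.10, 0.61 ± 0.20 and -0.36 ± 0.11. Robo4 over Cdh5 within a sample ran from 0.777 to 2.0 in females and from 0.594 to 0.826 in males. Tek (0.71 ± 0.19), Tie1 (0.53 ± 0.17), Sox18 (0.57 ± 0.09) and Egfl7 (0.33 ± 0.10) were also higher in males as a mean. The other probes of Cdh5 and Tek were not called as a mean, at 0.36 and 0.24 (limma adjusted p = 0.127 and 0.133). Tie1 was at 0.99, 1.38, 0.696 and 0.638 in female heterozygotes, 1.17, 1.89, 0.709 and 0.742 in female knockouts, 1.93, 1.69, 0.795 and 0.847 in male heterozygotes, and 3.19, 2.28, 1.01 and 0.844 in male knockouts. The mean calls of Cldn5, Tie1 and Egfl7 were lost when any 1 day was left out, those of Robo4 and Notch4 without E13.5, E14.5 or E15.5, that of Tek without E12.5 or E14.5, that of Ephb4 without E14.5 or E15.5, that of Gja4 without E13.5 and that of Cdh5 without E15.5. Sox18, Vwf, Dll4, Gja5 and Esm1 stayed called without any 1 day. Kdr differed by -0.44 ± 0.24, with the female level higher on 3 of 4 days in each genotype, and was not called.

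Esm1 was higher in males on every day, by 0.94 ± 0.24 in heterozygotes and 0.93 ± 0.24 in knockouts, and by least at E12.5. Apln differed by 0.23 ± 0.10 as a mean (adjusted p = 0.117). The lymphatic genes Flt4 (-0.43 ± 0.15, adjusted p = 0.0546) and Lyve1 (-0.29 ± 0.22) had negative differences, and neither was called with the probe used. The other probe of Lyve1 was called lower in males as a mean (-0.77, limma adjusted p = 0.0349) and in knockouts (-1.24, adjusted p = 0.0331). For Nrp1, which differed by 0.13 ± 0.14 with the probe used, 1 of 2 other probes was called lower in males in both genotypes and as a mean (-0.69, adjusted p = 0.00275). With 3 days in place of 4, heterozygotes had 1 call (Gja5) without E13.5, E14.5 or E15.5 and 7 without E12.5, and knockouts had 2 (Gja5 and Dll4) and 7.

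**Figure D3:**
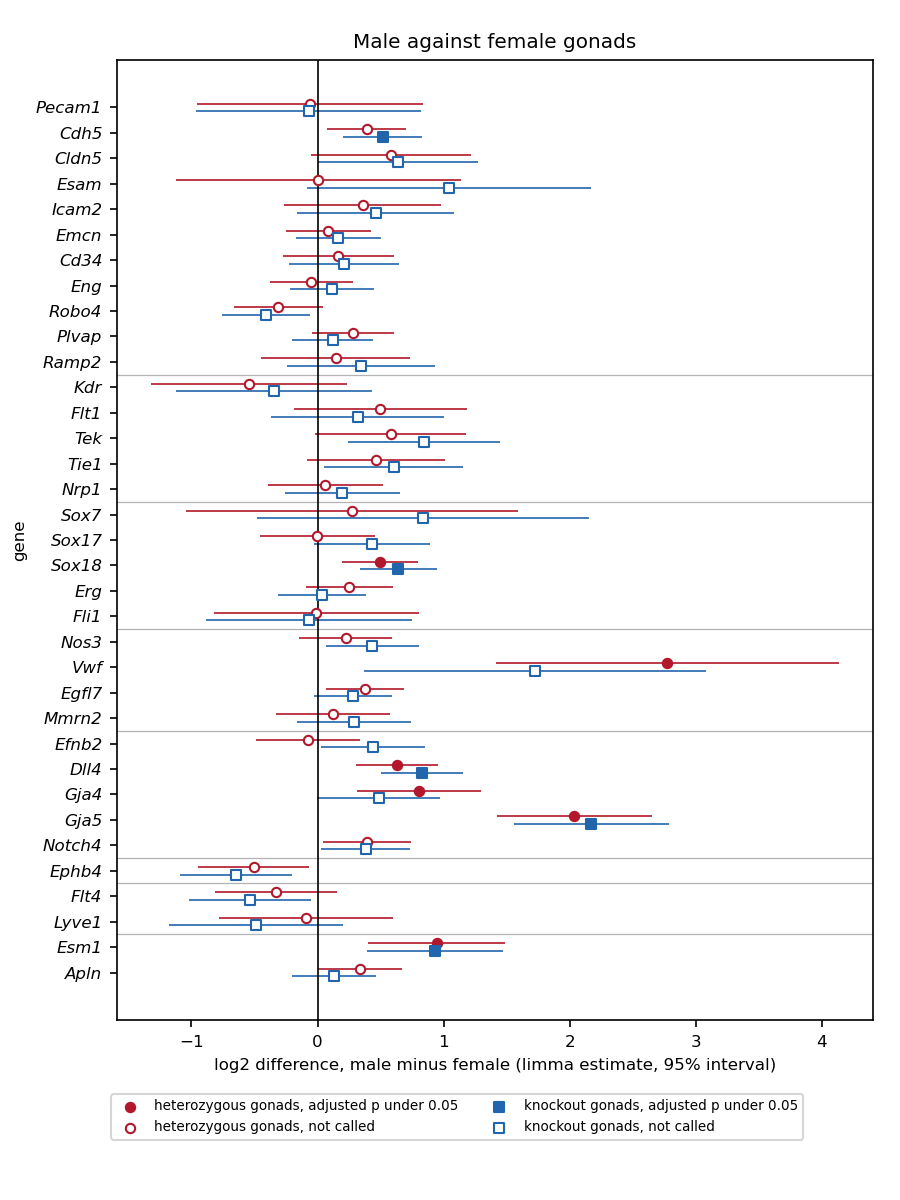
Log2 difference of each endothelial gene between male and female gonads with its 95% interval, Nanos3+/- as circles and Nanos3-/- as squares, filled where the adjusted p was under 0.05. Gja5 and Vwf lie farthest to the right, and Ephb4 and Robo4 lie left of 0 in both genotypes.

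The third comparison followed the endothelial genes from E12.5 to E15.5. As a mean slope over the 4 groups 17 genes fell and 5 rose, against 14.2% of all genes falling and 21.8% rising. The median slope was -0.17 log2 per day, where that of all genes was 0.03. With arrays as deposited 10 genes fell and 6 rose. Without E12.5, E14.5 or E15.5 the counts were 4, 8 and 6 falling and 4, 3 and 1 rising. With the probes used, all 5 receptors of vessel growth fell, and 4 of 5 transcription factor genes and 3 of 5 arterial genes did. In 12 genes the levels of E14.5 and E15.5 were both below those of E12.5 and E13.5 in all 4 groups, a pattern shared by 6.95% of all genes. They were Cldn5, Plvap, Kdr, Flt1, Tek, Tie1, Nrp1, Sox7, Sox17, Nos3, Dll4 and Notch4.

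Sox7, Kdr, Tek and Tie1 had the steepest falls. Sox7 had a mean slope of -0.80 ± 0.23 per day, Kdr of -0.58 ± 0.13, Tek of -0.46 ± 0.12 and Tie1 of -0.45 ± 0.09. Flt1 was at 0.95, 1.26, 0.746 and 0.821 in female heterozygotes, 1.02, 1.8, 0.981 and 0.879 in female knockouts, 2.2, 1.7, 0.741 and 1.05 in male heterozygotes, and 2.74, 2.26, 0.843 and 0.734 in male knockouts. With the probes used, its slope was -0.36 ± 0.09, near that of Nrp1 (-0.37 ± 0.09). Sox17, an arterial SOXF factor, was at 1.06, 1.03, 0.912 and 0.951 in female heterozygotes, 1.21, 1.12, 0.808 and 0.67 in female knockouts, 1.63, 1.01, 0.629 and 0.909 in male heterozygotes, and 1.97, 1.59, 0.785 and 0.989 in male knockouts. It fell by 0.27 ± 0.07 per day, and Sox18 fell by 0.23 ± 0.06. Cldn5 had a slope of -0.40 ± 0.07, Nos3 of -0.30 ± 0.06, Mmrn2 of -0.25 ± 0.07 and Plvap of -0.23 ± 0.04, and Dll4, Gja4 and Notch4 lay between -0.22 and -0.17. Esm1 (-0.35 ± 0.11) rested on its high level at E12.5, since without that day its slope was 0.03. Fli1, an ETS factor, was at 0.816, 0.945, 0.989 and 1.22 in female heterozygotes, 0.929, 1.42, 1.2 and 1.33 in female knockouts, 1.59, 1.01, 0.692 and 0.814 in male heterozygotes, and 2.09, 1.5, 0.891 and 0.614 in male knockouts. It fell by 0.16 ± 0.05 per day as a mean, with slopes of 0.18 ± 0.11 in female heterozygotes and 0.13 ± 0.11 in female knockouts, neither called, and of -0.35 ± 0.11 and -0.61 ± 0.11 in the male groups, both called.

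The genes that rose as a mean were Cd34 (0.34 ± 0.11), Vwf (0.31 ± 0.07), Apln (0.24 ± 0.05), Ramp2 (0.23 ± 0.06) and Eng (0.18 ± 0.04). For Vwf the levels of E14.5 and E15.5 were both above the earlier days in male heterozygotes alone, and both below them in the female groups. The other probe of Vwf was not called, at 0.13 (limma adjusted p = 0.356). Cd34, Eng and Apln were higher at E14.5 and E15.5 than on both earlier days in all 4 groups, as were 9.95% of all genes. The venous gene Ephb4 (0.04 ± 0.07) and the lymphatic genes were not called.

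The slope differed between the sexes for 3 genes, against 6.51% of all genes. The slope difference, male minus female, was 0.83 ± 0.14 per day for Vwf (adjusted p = 0.00899). For Icam2 and Fli1 it was -0.47 ± 0.09 and -0.63 ± 0.11 (adjusted p = 0.0125 and 0.00899). Icam2 was higher at E14.5 and E15.5 than on both earlier days in the female groups, and lower in the male groups. For the sex difference of the slope, a further probe of Fli1 gave -0.03 and that of Vwf 0.42, neither called (limma adjusted p = 0.941 and 0.264). The other probe of Efnb2 was called, at -0.50 (0.0172), where the probe used gave -0.05. The slope of Vwf was lower in knockouts than in heterozygotes by 0.62 ± 0.14 per day as a mean over the sexes (adjusted p = 0.0496), the 1 gene so called, against 1.88% of all genes. Scaling moved the median of all genes for this difference from -0.16 as deposited to -0.01. No call of a difference between slopes remained without E12.5, E14.5 or E15.5, and that of Vwf between genotypes was lost without E13.5 too. Within groups, Vwf rose by 1.37 ± 0.14 per day in male heterozygotes. Other calls within groups were a rise of Ramp2 in female heterozygotes, a rise of Eng and falls of Cldn5, Icam2 and Fli1 in male heterozygotes, and falls of Icam2, Plvap, Flt1, Tie1, Fli1 and Gja4 in male knockouts. These are 1, 0, 5 and 6 genes in female heterozygotes, female knockouts, male heterozygotes and male knockouts, against 9.78%, 3.36%, 16.5% and 5.82% of all genes.

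The detection limit also moved with the day. In the deposited values it lay between 0 and 0.46 (log2, relative to the lowest sample) at E12.5 and E13.5 and between 0.68 and 1.08 at E14.5 and E15.5. Its part in the slopes was not tested. Slopes also differed between probes of a gene. Of 14 endothelial genes with several probes, 9 had a probe called for the mean slope and 1 had all its probes called in the same direction, and in 4 the probes differed in sign. The other probes of Tek and Fli1 gave slopes of 0.07 each, where the probes used gave -0.46 and -0.16, and that of Sox7 gave -0.14 against -0.80. The other probes of Flt1 gave -0.09 and -0.08 (limma adjusted p = 0.196 and 0.205), and those of Nrp1 -0.06 and -0.16 (0.374 and 0.0505), none called. For the mean sex difference 12 of the 14 had the same sign in every probe, and for the mean knockout difference 12 of 14 did. In female knockouts 9 of the 14 genes had a probe called and 1 had all its probes called, and in male knockouts 10 and 4.

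**Figure D4:**
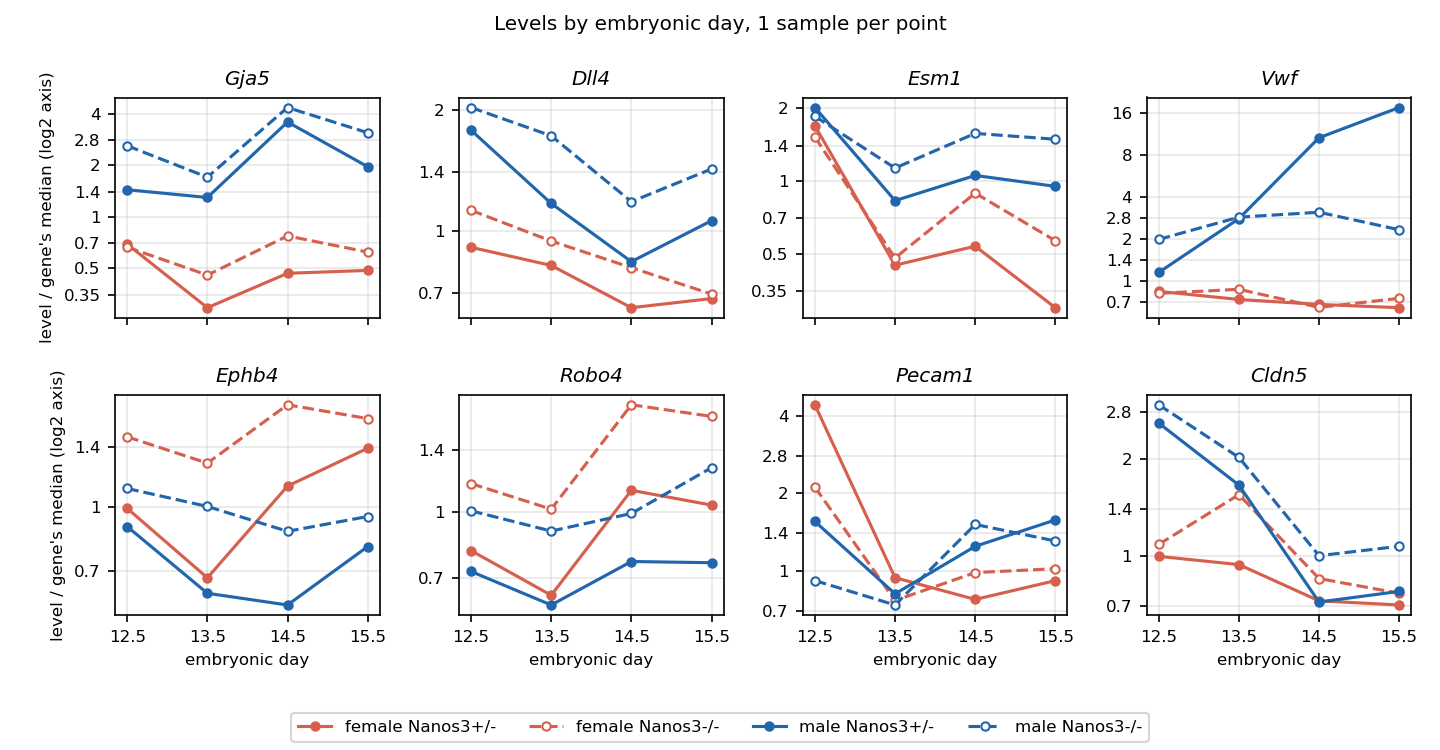
Level of 8 endothelial genes, relative to the gene's median, by embryonic day on a log2 axis, with 1 sample per point, females in red, males in blue, Nanos3+/- as solid and Nanos3-/- as dashed lines. Vwf climbs to 17.5 in male heterozygotes, and Pecam1 starts at 4.41 in female heterozygotes.

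**Figure D5:**
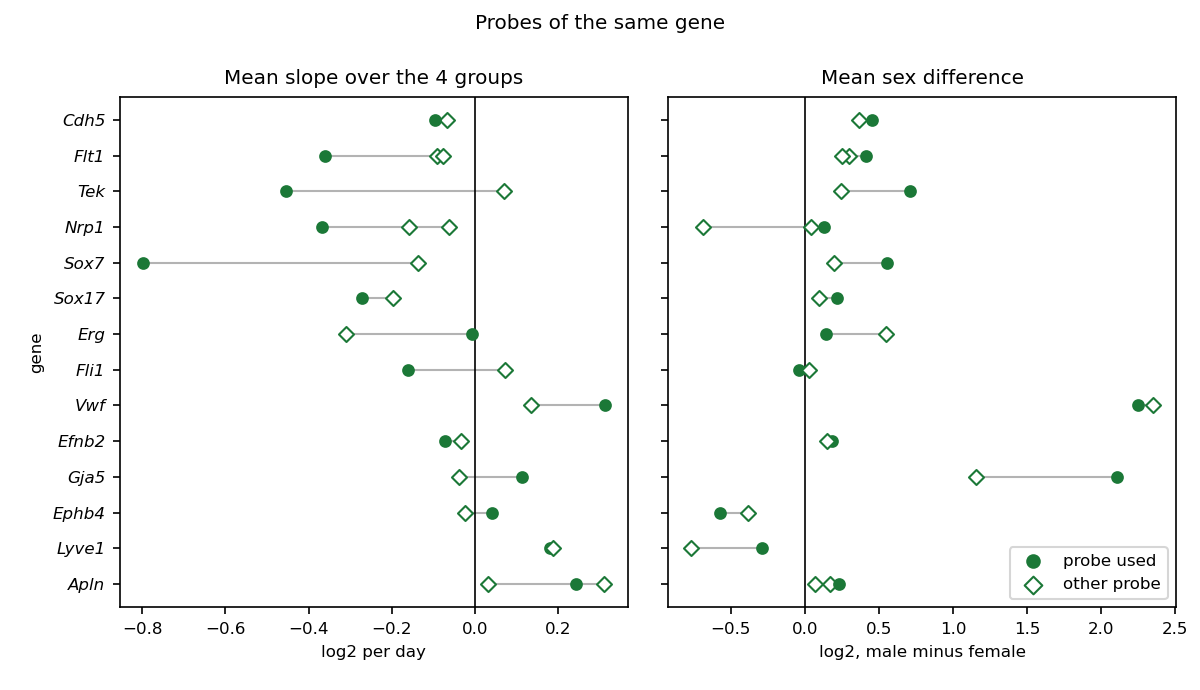
Estimates from every probe past the filter for the 14 endothelial genes with several probes, the probe used as filled circles and other probes as open diamonds. The left panel gives the mean slope per day, where Tek and Sox7 spread widely, and the right panel the mean sex difference, where Gja5 and Vwf stay right of 0 with each probe.

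Further lists of endothelial genes were described by their counts. Of 19 other general endothelial genes measured (of 20 listed), 14 rose in female knockouts and 12 in male knockouts and none fell. The medians of the list were 0.39 and 0.46, and of all genes 20.9% and 21.6% rose. The genes that rose included S1pr1, a receptor for sphingosine phosphate (0.74 ± 0.15 in females, 0.51 ± 0.15 in males), and Clec14a, an endothelial lectin (0.45 ± 0.14 and 0.52 ± 0.14). The 2 with the largest female differences, Tal1 (2.29 ± 0.45) and Lmo2 (1.30 ± 0.37), are factors that erythroid cells also use. Between the sexes 6 were higher and 3 lower in males, with Podxl, a sialomucin that epithelia also make, at -1.96 ± 0.15.

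Of 7 other arterial genes measured (of 9 listed), 2 were higher and 1 lower in males, shares of 28.6% and 14.3% against 16.8% of all genes each way. Jag1, a Notch ligand, was at 0.97, 0.277, 0.584 and 0.708 in female heterozygotes, 0.948, 0.629, 0.958 and 0.754 in female knockouts, 1.03, 1.05, 3.86 and 3.52 in male heterozygotes, and 1.2, 2.07, 6.08 and 4.76 in male knockouts. Its male levels were highest at E14.5 and E15.5, and the mean sex difference was 1.80 ± 0.34 (adjusted p = 0.00353). The Notch target Hey2 was higher by 0.98 ± 0.23. The Notch ligand Jag2 was called lower in males as a mean (-0.42 ± 0.13), which holds for heterozygotes (-1.09 ± 0.19, called, with no overlap) and not for knockouts, where the difference was 0.24 ± 0.19 and was not called. Jag2 was also the 1 gene of this list called in female knockouts, where it fell by 1.56 ± 0.15, against -0.23 ± 0.15 in males, and the sexes differed in this (adjusted p = 0.0365 in limma). In male knockouts 0 of these 7 arterial genes were called. As a mean over the sexes 2 were higher and 1 lower in knockouts, against 31.2% and 18.1% of all genes. Of 8 other venous and lymphatic genes, 1 was higher (Aplnr, the apelin receptor, 0.55 ± 0.09) and 2 lower in males (Stab2, -0.68 ± 0.17, and Stab1, -0.32 ± 0.10, both scavenger receptors), near the background. Of all genes 20.9% were higher and 13% lower in female knockouts, and 21.6% and 12.6% in male ones. In the knockouts 2 of the 8 venous and lymphatic genes were higher and 1 lower in females, and 3 higher and 0 lower in males. Prox1, a master regulator of lymphatic identity, was the lower one, at 0.852, 3.43, 2.68 and 1.58 in female heterozygotes, 0.564, 0.441, 0.722 and 0.766 in female knockouts, 0.922, 1.03, 2.62 and 0.967 in male heterozygotes, and 1.47, 0.866, 2.41 and 1.62 in male knockouts. It fell by 1.62 ± 0.35 in females with no overlap, while the male groups overlapped (0.26 ± 0.35), and the difference between the sexes was not called (adjusted p = 0.111).

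Genes for ligands of endothelial receptors differed between the sexes in both directions. Of 12 ligand genes measured (of 14 listed), 4 were higher and 4 lower in males, 33.3% each way against 16.8% of all genes. Adm, which encodes adrenomedullin and acts through Ramp2, was at 5.25, 1.32, 2.95 and 2.93 in female heterozygotes, 11.7, 3.54, 6.85 and 4.61 in female knockouts, 0.472, 0.21, 0.359 and 0.408 in male heterozygotes, and 0.755, 0.298, 0.445 and 0.538 in male knockouts. It was lower in males by 3.32 ± 0.15 (adjusted p = 8.0e-07) with no overlap. Vegfd, a ligand of Flt4 and in humans of KDR, was at 0.54, 0.65, 0.426 and 0.509 in female heterozygotes, 0.496, 0.621, 0.56 and 0.569 in female knockouts, 1.54, 3.28, 4.93 and 4.88 in male heterozygotes, and 1.77, 3.04, 5.47 and 5.9 in male knockouts. Males were higher on every day with no overlap, by 2.68 ± 0.26. Pgf, a ligand of Flt1, was also higher in males (1.60 ± 0.19). Sema3a, a ligand of Nrp1, and Sema3e, a repellent of vessels, were lower (-1.75 ± 0.15 and -1.19 ± 0.13). Vegfa, the ligand of Kdr, was not called between the sexes and rose in the knockouts of both (0.44 ± 0.09 in females and 0.37 ± 0.09 in males). In the knockouts 7 ligand genes rose in females and 6 in males, and none fell, where 20.9% and 21.6% of all genes rose.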

How the data were processed

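Gene expression was measured in mouse embryonic gonads on Agilent arrays, read with Agilent Feature Extraction 9.5 per the submitters' processing notes. The deposited values are ratios, centred per probe so that most probe medians lie near 1. How the authors combined replicates 1 and 2 and normalized the arrays is not given in the sources used here, so the value that a ratio of 1 stands for is unknown. The number of arrays limits the precision.

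The 93 control probes were left out of 41267. The detection limit of each sample was recovered from ratios shared by many probes, within 0.0002 log2, arrays were scaled to the same 75th percentile over 28360 probes never at the limit, and a common limit was set. Of 32664 probes with 1 gene symbol (8465 had none and 45 several), 19532 genes were each given a single probe, the one least often at the limit and then that of highest mean. As the values were centred per probe, that mean does not measure signal strength. Among probes equally often at the limit, the choice therefore does not rank their quality. Genes that exceeded the limit in 4 or more of the 16 samples, 16582 in all, were tested on log2 values in R 4.3.3 with limma 3.58.1, using lmFit and a trended eBayes, and Benjamini-Hochberg adjustment. Tables were made with Python 3.11.15, pandas 2.3.3 and numpy 2.4.6, and the procedure was tested on simulated data with 200 changed genes.

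Knockout effects were fitted with sex and day as a block and sex effects with genotype and day as a block, since the labels give each group the same 4 days. Deviations of same-day samples from their group means correlated at 0.478 to 0.758 between genotypes and at 0.187 to 0.641 between sexes. Alternatives covered scaling, limit, filter, probe, trend, weights, block and single days. A test of ratios stood in for the intensities that the design had assumed.

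The 35 genes and all lists were chosen with earlier results of these data known. Values in every sample are given for called genes and for Pecam1, Cdh5, Kdr, Efnb2, Dll4, Gja5, Ephb4, Lyve1, Flt4, Esm1 and Apln, and up to 5 called genes of a further list are named by size.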

Additional observations from a re-analysis of the deposited data

Results flagged for a closer look

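In 5 of 140 groups of 4 samples, a single day of an endothelial gene lay far from the other 3 by Dixon's test at the 95% level, where chance gives about 1 in 20. Pecam1 was at 4.41 in female heterozygotes of E12.5. Esam (0.487), Erg (0.602) and Efnb2 (0.582) were low in female heterozygotes of E13.5, and Gja4 was at 0.842 in female knockouts of E15.5. These are levels relative to the gene's median.

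The slope per day differed between the sexes by limma for Icam2 (-0.47, male minus female, log2 per day), Fli1 (-0.63) and Vwf (0.83). That of Vwf also differed between the genotypes (-0.62, knockout minus heterozygous, adjusted p = 0.0496).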

How the results depend on the processing

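Of 147 counts of called endothelial genes compared over 15 alternatives, 103 were within 1.5 times the main count. With arrays as deposited the knockout counts fell from 13 to 1 in females, from 21 to 1 in males and from 22 to 8 as a mean. Without the replicate block they were 0, 0 and 6, and the sex counts were 3 in heterozygotes (6 with it), 3 in knockouts (5) and 8 as a mean (14). The sex count in knockouts was 8 with quantile normalization, 8 with the mean of all probes, 11 with array weights, whose fit stopped before convergence, and 3 without the female knockout of E14.5, where that of knockout males was 19. The count of sex differences of the slope was 6 with array weights (3 otherwise). The single genotype difference of the slope was lost (0) with quantile normalization, no common limit, a filter of 12 samples, the mean of all probes, the next probe and without the female knockout of E14.5.

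Leaving out each day gave 1 to 13 genes for knockout females, 6 to 18 for knockout males, 17 to 24 for their mean, 1 to 7 and 2 to 7 for sex in heterozygotes and knockouts, 7 to 11 for the mean sex effect, 7 to 24 for the slope, 0 to 5 for its sex difference and 0 for its genotype difference. Signs turned for Erg's mean knockout effect (-0.00521) and the mean slopes of Tek (0.0698) and Fli1 (0.0718), and for the slope of Fli1 in male heterozygotes (0.00204) and knockouts (0.11), all with the next probe, and for the mean slope of Esm1 without E12.5 (range over left-out days -0.449 to 0.0306). The next probe and the left-out female knockout of E14.5 were chosen after seeing the data. Called in every setting were Cdh5, Emcn, Eng and Robo4 for the mean knockout effect, Gja5 for sex in heterozygotes, Gja5 and Dll4 in knockouts, Sox18, Vwf, Dll4 and Gja5 for the mean sex effect, Cldn5 for the mean slope and Vwf for the slope in male heterozygotes. The causes were not tested.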

Other observations

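The 35 endothelial genes varied together only in part. Over the 595 pairs of genes the median Pearson correlation across the 16 samples, which share sex, genotype and day, was 0.29, and 0.19 after group means were taken off. Sox18 (0.96), Dll4 (0.91), Notch4 (0.90) and Nos3 (0.90) were closest to the median of the other genes, and Apln (-0.39) and Lyve1 (-0.19) were farthest.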
